A study of Mus musculus with 8 samples.

Results

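The comparison described here is between cumulus cells of mice that lack the prostaglandin E2 receptor EP2 (EP2KO, genotype Ptger2-/-) and of wild-type (WT) mice, after ovulation. It rests on 2 of the 8 arrays of the series, chosen by their labels as the EP2KO and the WT cumulus sample taken 14 h after hCG, and it covers 12422 probe sets that stand for 8251 named genes. All mice were C57Bl/6 females, 3 to 4 weeks old, given 5 IU of PMSG, an FSH-like hormone that makes follicles grow. Those of the 3, 9 and 14 h groups then received 5 IU of hCG, which stands in for the ovulatory LH surge, 48 h after PMSG, and the 0 h groups received no hCG. The 6 arrays of 0, 3 and 9 h, again 1 per genotype and time, serve only as a measure of how far WT and EP2KO differed before ovulation. Those earlier complexes came out of punctured ovarian follicles and were stripped by hand. The 14 h complexes had been shed into the ampulla of the oviduct and were freed with 0.1% hyaluronidase, so that ovulation and the way of collection cannot be told apart. The receptor was missing from the whole animal, not from cumulus cells alone, and the labels do not say how many mice gave a sample or whether mice were pooled.

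Cumulus cells are the granulosa-derived somatic cells that enclose the oocyte. After the LH surge they make prostaglandin E2 and a hyaluronan-rich matrix, and the complex expands and is ovulated. EP2, the product of Ptger2, is a Gs-coupled receptor that raises cyclic AMP when it binds prostaglandin E2, and female mice without it are known for impaired cumulus expansion and fertilization. Chemokines are small secreted proteins that draw leukocytes, and in many tissues prostaglandin E2 modulates how much of them is made.

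The values are log2 signals, on which a difference of 1 is a 2-fold change, and every difference below is EP2KO minus WT. With 1 array per group no test can be made at 14 h alone. Each 14 h difference was therefore set beside the 3 earlier ones, and their contrast, the 14 h difference minus the mean of the differences at 0, 3 and 9 h, was tested with limma and is called the departure. Its p-values set the 14 h difference against the spread of the genotype difference over 0, 3 and 9 h. That spread may be technical or a real change with time, and it holds no replicate of the 14 h pair. Array medians were 7.84 (WT) and 7.86 (EP2KO) at 14 h, and the median difference over all probe sets was 0.02. The standard deviation of the differences was 0.226 at 14 h, against 0.224, 0.241 and 0.200 at 0, 3 and 9 h. Gapdh controls from the 3' and the 5' end of the transcript lay 2.87 (WT) and 2.82 (EP2KO) apart at 14 h, and 0.80 to 1.86 apart on the 6 arrays before. Those of Actb lay 1.61 (WT) and 1.37 (EP2KO) apart at 14 h, and 0.69 to 1.54 before, a smaller change. The gap widens as RNA shortens. The WT array of 9 h stood apart in erythroid and platelet markers, with a summed linear signal of 13897 against 3006 to 7022 in the other 7 arrays.

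Ptger2 itself was read first. Its probe set gave 4.95, 5.97, 5.37 and 5.33 in WT at 0, 3, 9 and 14 h, and 4.57, 4.24, 4.69 and 4.51 in EP2KO. EP2KO was lower at every time, with differences of −0.38, −1.73, −0.68 and −0.82, which goes with the labels. The cells also carried markers of their labelled identity at 14 h, at a lower mean level than at 0 h. Of 9 measured cumulus and granulosa markers, Inha, the inhibin alpha subunit, read 12.70 in WT and 12.34 in EP2KO, and Gja1, the gap junction protein connexin 43, read 13.51 and 13.28. The mean of the 9 markers was 9.89 (WT) and 9.81 (EP2KO) at 14 h, and 10.79 and 10.81 at 0 h. The median difference at 14 h was −0.06, with single markers from −0.56 for Nr5a2 to 0.35 for Inhba. No marker was higher or lower by 0.6 or more outside its earlier differences.

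At 14 h the 2-fold differences leaned towards higher signal in EP2KO. Of the 12422 probe sets 21 (0.169%) were higher in EP2KO by 1 or more and 6 (0.0483%) were lower. At 3 h the lean was the other way, with 8 higher and 50 lower. The numbers were 3 and 2 at 0 h, and 5 and 11 at 9 h. The 14 h count turned with the threshold: at 0.6, about 1.52-fold, 81 were higher and 157 lower. None of the 27 lay within the range of its own earlier differences, and 18 of the higher and 4 of the lower ones lay outside it by 0.5 or more. Being chosen for a large difference at 1 time favours this, and it was not particular to 14 h. Set against their own other times in the same way, 2 of 5 lay outside at 0 h, 48 of 58 at 3 h and 9 of 16 at 9 h. On both sides the threshold runs through a continuous tail, with 1.0 just inside and 0.99 just outside, and −1.02 just inside and −0.99 just outside. Of the 27, 12 read below the array median on both 14 h arrays, and with the dimmest 40% of probe sets left out the higher count was 7.

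The departure passed the test at an adjusted p under 0.05 (limma, Benjamini-Hochberg over 12422 probe sets) for 8 probe sets that were higher in EP2KO (0.0644%) and 2 that were lower (0.0161%). The higher ones were Ccl2, Arg1, Krt18, Cxcl1, Lilr4b, Ctss, a probe set shared by Lilrb4a and Lilr4b, and 1 without a gene name. The lower ones were Bnip3 and Hmgb2. All 10 calls needed all 3 earlier array pairs: without the 0, the 3 or the 9 h pair no departure passed, and the smallest adjusted p was 0.719, 0.380 and 0.847. Centring each array on its median, or removing the intensity trend, also left 0 calls, with smallest adjusted p of 0.0951 and 0.0538, as did leaving out dim probe sets (0.0628) and averaging the probe sets of a gene (0.0575). Quantile normalization gave 9 higher and 1 lower. The departures of the 8 called probe sets with 1 gene symbol kept their sign under every alternative that was run, from 1.84 to 2.03 for Ccl2 and from −1.65 to −1.43 for Bnip3. That of Krt18 ran from 0.84 to 1.86, and both it and that of Cxcl1 (1.31) were lowest when the probe sets of the gene were averaged. The shared and the unnamed probe set were not followed through the alternatives one by one. At an unadjusted p under 0.05, 272 probe sets departed upwards and 593 downwards. The genotype difference over all 4 times gave 0 calls in limma, with 642 probe sets at an unadjusted p under 0.05.

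**Figure D1:**
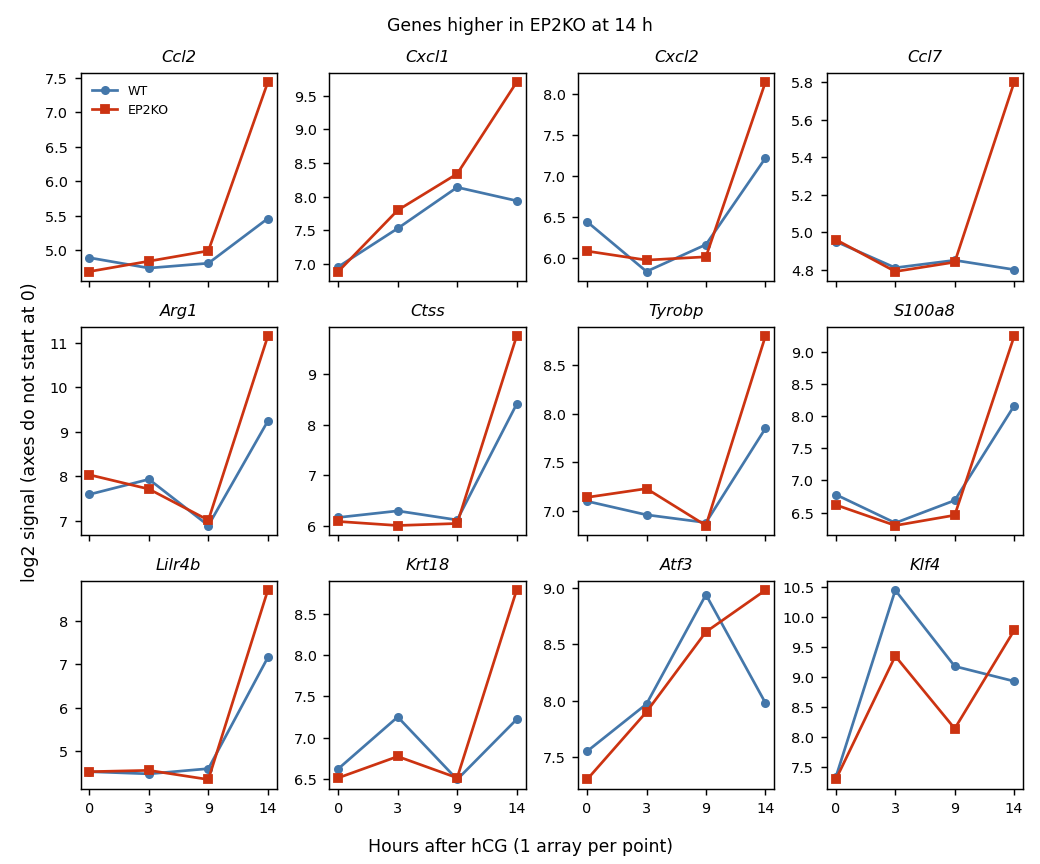
log2 signal of 12 genes (vertical axes, scaled to each gene) against hours after hCG in WT (blue circles) and EP2KO (red squares), 1 array per point. Ccl2, Ctss and Lilr4b lie close together in both genotypes up to 9 h and separate at 14 h by 1.98, 1.35 and 1.55.

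Chemokines were the secreted signals with the largest differences. Ccl2, the main attractant of monocytes, measured 4.89, 4.74, 4.81 and 5.46 in WT at the 4 times and 4.69, 4.84, 4.99 and 7.44 in EP2KO. The EP2KO array of 14 h was the only one of the 8 above 5.46. Both 14 h readings of Ccl2 nevertheless lay below the medians of their arrays, 7.84 (WT) and 7.86 (EP2KO). The difference at 14 h was 1.98, a 3.94-fold higher signal, with a departure of 1.95 (SE 0.217, limma adjusted p = 0.0357). Cxcl1, which draws neutrophils, is covered by 2 probe sets. The more responsive one measured 6.96, 7.53, 8.14 and 7.94 in WT and 6.89, 7.80, 8.34 and 9.70 in EP2KO. Its difference of 1.76 was 3.39-fold, with a departure of 1.63 (SE 0.212, adjusted p = 0.0357). The brighter Cxcl1 probe set read 8.06 in WT and 9.23 in EP2KO at 14 h, and its departure of 0.99 did not pass (adjusted p = 0.373). WT thus had passed its highest Cxcl1 signal by 14 h on the first probe set, while EP2KO had its highest there on both.

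Ccl7, Cxcl2 and Ccl9 also lay above their earlier differences, without passing the departure test. Ccl7, another monocyte attractant whose gene neighbours Ccl2, read 4.80 to 4.96 in the 7 other arrays and 5.80 in EP2KO at 14 h (difference 1.0, departure adjusted p = 0.173). Every Ccl7 reading lay far under the array medians of 7.79 to 7.89. Cxcl2, a neutrophil attractant close to Cxcl1 in sequence, went to 7.22 (WT) and 8.15 (EP2KO) at 14 h, against 5.83 to 6.44 before (difference 0.93, adjusted p = 0.228). Ccl9, a chemokine made by macrophages among others, read 7.67 and 8.56 against 6.43 to 6.90 before (difference 0.89, adjusted p = 0.351). For Cxcl2 and Ccl9 both genotypes were highest at 14 h, and EP2KO was the higher of the pair.

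Of 25 measured chemokines 14 had a 14 h difference above all 3 earlier ones and 2 below, beside 26.0% and 24.7% of all 8251 genes. Their median difference was −0.21, 0.08, −0.01 and 0.15 at the 4 times, against 0.00, 0.03, 0.00 and 0.02 for all genes. A difference of at least 0.6 above the earlier ones was seen in 5 of the 25, the genes just named, beside 0.667% of all genes. A difference of −0.6 or less below the earlier ones, which 1.28% of all genes had, was seen in 0 of the 25. The receptors were quieter: among 18 measured, Ccr2, the receptor for Ccl2 and Ccl7, read 6.15 (WT) and 6.99 (EP2KO) at 14 h, against 5.39 to 6.08 before, and the list median was 0.05.

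Of the 5 chemokines named, Cxcl1, Cxcl2 and Ccl9 were matched in the promoter table, and Ccl2 and Ccl7 were not. The promoters of the matched 3 are shown because inflammatory chemokine genes are classical targets of NF-kappaB, the transcription factor of inflammatory signalling. The 250 bases before the start site are given from RefSeq (GRCm38.p6), 5' to 3' on the gene's strand, with matches to the letters GGNNTTTCC on either strand in capitals. The windows are chr5:90890995-90891244 for Cxcl1 and chr5:90903649-90903898 for Cxcl2, both on the plus strand, and chr11:83578637-83578886 for Ccl9 on the minus strand.
Cxcl1: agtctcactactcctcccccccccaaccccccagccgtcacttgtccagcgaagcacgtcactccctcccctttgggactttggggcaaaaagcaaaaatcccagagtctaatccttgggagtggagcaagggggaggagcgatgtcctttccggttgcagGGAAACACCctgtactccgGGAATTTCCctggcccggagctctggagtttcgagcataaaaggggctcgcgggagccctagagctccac
Cxcl2: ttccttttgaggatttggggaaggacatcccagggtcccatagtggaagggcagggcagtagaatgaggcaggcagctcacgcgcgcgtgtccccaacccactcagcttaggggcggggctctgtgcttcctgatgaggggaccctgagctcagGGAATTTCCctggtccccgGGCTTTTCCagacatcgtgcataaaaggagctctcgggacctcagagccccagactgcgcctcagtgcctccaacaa
Ccl9: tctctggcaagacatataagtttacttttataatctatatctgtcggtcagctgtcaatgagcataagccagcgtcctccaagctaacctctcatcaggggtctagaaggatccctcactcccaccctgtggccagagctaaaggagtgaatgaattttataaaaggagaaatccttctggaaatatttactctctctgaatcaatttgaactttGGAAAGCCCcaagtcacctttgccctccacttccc
Cxcl1 and Cxcl2 each hold 2 matches, and both hold GGAATTTCC. Ccl9 holds 1, GGAAAGCCC, which is a match on the opposite strand. Of 32851 listed windows of this length, 1619 (4.93%) hold at least 1. A match describes the letters and shows no binding.

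The NF-kappaB pathway genes themselves differed less. Nfkbia, the inhibitor of NF-kappaB that NF-kappaB itself induces, measured 9.58, 10.44, 10.43 and 9.65 in WT and 9.72, 10.58, 10.73 and 10.34 in EP2KO. WT had gone back near its starting level at 14 h and EP2KO was 0.69 above it, though a second probe set differed by 0.17. Of 21 measured pathway genes 9 lay above and 2 below their earlier differences, beside the same shares of all genes as for the chemokines, with a median of 0.10. Among 39 cytokines and receptors the median was 0.06, with 17 above and 4 below, beside 26.0% and 24.7% of all genes. A difference of 0.6 or more above the earlier ones, which 0.667% of all genes had, was seen in 1. That was Il6, a cytokine that cumulus cells make around ovulation, at 5.09 in WT and 5.76 in EP2KO. Both readings lay below the medians of their arrays, 7.84 (WT) and 7.86 (EP2KO). For the 31 interferon response genes the median was 0.04, with 7 above and 2 below, beside 26.0% and 24.7% of all genes. Of them 0 reached 0.6 in either direction outside their earlier differences, beside 0.667% (higher) and 1.28% (lower) of all genes.

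Genes of macrophages and other myeloid cells read higher in EP2KO at 14 h, when WT too stood above its earlier level. Ctss, the lysosomal protease cathepsin S of antigen-presenting cells, measured 6.16, 6.29, 6.11 and 8.41 in WT and 6.08, 6.00, 6.04 and 9.76 in EP2KO. The WT array of 14 h already lay above every earlier array, and EP2KO was a further 2.55-fold higher (difference 1.35, departure 1.5, SE 0.202, limma adjusted p = 0.0359). Lilr4b, an immunoglobulin-like receptor of myeloid cells, measured 4.53, 4.48, 4.60 and 7.16 in WT and 4.53, 4.56, 4.35 and 8.71 in EP2KO. Its difference of 1.55 was 2.93-fold, with a departure of 1.61 (SE 0.211, adjusted p = 0.0357). The probe set shared by Lilrb4a and Lilr4b read 5.56 and 6.94 at 14 h, a departure of 1.48 (SE 0.192, adjusted p = 0.0357). As these probe sets share a target, they are not separate evidence.

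Arg1, the enzyme that splits arginine into ornithine and urea and is known for its use by macrophages in repair, was highest at 14 h in both genotypes. It measured 7.59, 7.93, 6.89 and 9.24 in WT and 8.03, 7.71, 7.01 and 11.15 in EP2KO. The difference at 14 h was 1.91, or 3.76-fold, against 0.44, −0.22 and 0.12 before (departure 1.80, SE 0.255, limma adjusted p = 0.0466). Lyz2, lysozyme of macrophages and granulocytes, read 6.56 in WT and 7.65 in EP2KO on its brighter probe set, a difference of 1.09, and 6.18 and 6.09 on the other. Tyrobp, the signalling adaptor of many myeloid receptors, read 7.85 and 8.80 against 6.85 to 7.23 before. Cd53, a tetraspanin of leukocytes, read 7.15 and 8.0 against 5.38 to 5.66 before. For Tyrobp and Cd53 both 14 h arrays stood above all 6 earlier ones, and EP2KO above WT.

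Over the whole list, 17 of 24 macrophage and monocyte markers lay above their 3 earlier differences and 1 below, beside 26.0% and 24.7% of all genes, with a median of 0.34 against −0.10, 0.10 and −0.06 before. A difference of at least 0.6 above the earlier ones, which 0.667% of all genes had, was seen in 7: Ctss, Lyz2, Tyrobp, Clec4d, Cd53, Ccr2 and C1qa. Some of these stand in other lists here too. Summed over the list, the linear signal was 5662 (WT) and 7855 (EP2KO) at 14 h, and 3533 to 4922 on the 6 arrays before. In 12 of the 24 both 14 h arrays were above all earlier ones, and in 5 more only the EP2KO array was. Among all 8251 genes these counts were 1229 and 564. The widely used markers differed by less: Csf1r, the receptor of macrophage colony-stimulating factor, by 0.39, Adgre1, an adhesion receptor of macrophages, by 0.29, Cd68 by 0.31 and Itgam by 0.21. Of the 24, 22 differences were positive and 2 negative, beside 4335 and 3751 of all 8251 genes. The negative ones were −0.18 for Fcer1g and −0.13 for Cx3cr1. Fcgr3 differed by 0.04, and C1qb by 0.04 on its brightest probe set and 1.03 on another. Ptprc, the pan-leukocyte antigen CD45, differed by 0.04, 0.36 and −0.15 on its 3 probe sets. At 0 h 6 of the 24 read above the array median in each genotype, beside 4820 (WT) and 4856 (EP2KO) of all 8251 genes. In a bulk sample more cells of a type and more RNA per cell cannot be told apart. The part of other cells in the chemokine and Arg1 differences was not tested.

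Granulocyte markers differed in a few members. S100a8 and S100a9, which pair as calprotectin in neutrophils and monocytes, gave 8.16 and 6.97 for WT and 9.24 and 7.71 for EP2KO at 14 h. The S100a8 difference of 1.08 had a departure of 1.22 (limma adjusted p = 0.0786). Genes of neutrophil granules differed by less, from −0.08 for Ltf and −0.05 for Camp, within their earlier differences, to 0.24 for Mmp9 and 0.31 for Ctsg, above theirs. Over the 20 measured markers the median was 0.10, with 8 above and 0 below their earlier differences (26.0% and 24.7% of all genes), and the summed signal was 5098 (WT) and 5633 (EP2KO) at 14 h, and 3227 to 4775 before. The 21 lymphocyte markers had a median of 0.07, with 10 above and 0 below, against the same shares. The 20 complement and Fc receptor genes had a median of 0.16. In the latter list 11 lay above and 1 below, against the same shares, with Fcgr2b, an inhibitory Fc receptor, at 6.18 in WT and 6.91 in EP2KO. Of the 19 antigen presentation genes H2-Aa, an MHC class II chain, read 8.56 and 9.18 at 14 h, and the list median was 0.01.

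**Figure D2:**
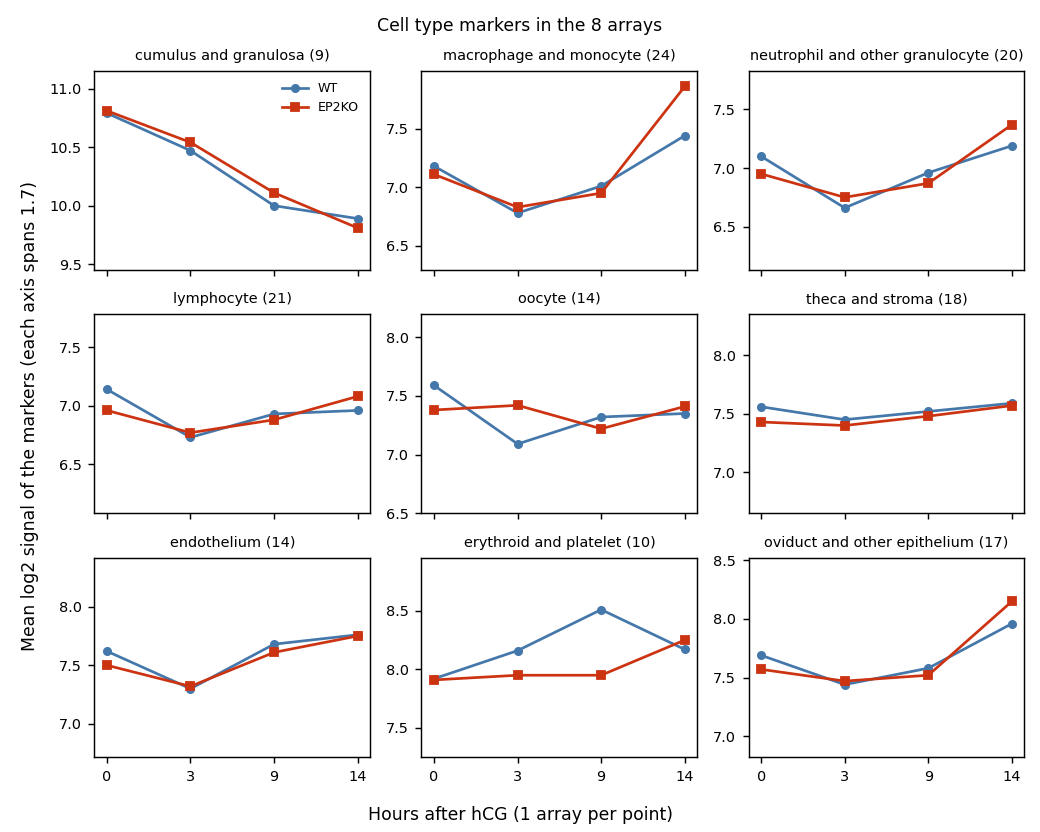
Mean log2 signal of 9 marker lists (vertical axis, every panel spanning 1.7) against hours after hCG in WT (blue circles) and EP2KO (red squares), with the number of markers in brackets and 1 array per point. At 14 h the macrophage and monocyte markers average 7.44 (WT) and 7.86 (EP2KO), and 6.78 to 7.18 before.

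An epithelial keratin was among the departures. Krt18, which pairs with Krt8 in simple epithelia, measured 6.62, 7.25, 6.49 and 7.22 in WT and 6.51, 6.77, 6.51 and 8.79 in EP2KO. The difference at 14 h was 1.57, or 2.97-fold (departure 1.76, SE 0.233, limma adjusted p = 0.0357), while a second, dim Krt18 probe set read 3.68 and 3.69. Krt8 itself read 9.96 in WT and 10.33 in EP2KO. Ovgp1, the oviduct-specific glycoprotein of the secretory epithelium, gave 11.13 (WT) and 11.46 (EP2KO) at 14 h against 7.05 to 7.76 before, and 9.72 and 10.44 against 7.01 to 7.40 on a second probe set. Its signal was higher at 14 h than at any earlier time in both genotypes, and EP2KO read above WT by 0.33 and 0.72. Of 17 oviduct and other epithelium markers 7 lay above and 1 below the earlier differences, beside 26.0% and 24.7% of all genes, with a median of 0.17. Their summed signal was 7341 (WT) and 8715 (EP2KO) at 14 h, and 4327 to 4859 before. Foxj1, which defines ciliated cells, differed by −0.03 and Pax8, a secretory cell factor, by −0.22. The part of oviduct cells in these differences was not tested.

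Immediate early genes, the transcription factors that cells switch on within minutes of a stimulus, read lower in EP2KO before ovulation and higher after it. Their list had the highest 14 h median of all 40 lists described here. Over 19 measured factors the median difference was −0.23, −0.25 and −0.25 at 0, 3 and 9 h and 0.41 at 14 h, with 14 above and 0 below their earlier differences, beside 26.0% and 24.7% of all genes. Klf4, a zinc finger factor of growth arrest, measured 7.33, 10.45, 9.18 and 8.93 in WT and 7.29, 9.35, 8.14 and 9.78 in EP2KO. The difference was −1.10 and −1.04 at 3 and 9 h and 0.85 at 14 h (departure 1.58, SE 0.360, limma adjusted p = 0.272). Klf6 differed by −0.64, −0.64 and −0.39 before and by 0.72 at 14 h. Junb, a partner in AP-1, differed by −0.28, −0.71 and −0.67 before and by 0.58 at 14 h.

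Atf3, a stress-induced factor that binds DNA with AP-1 proteins, measured 7.55, 7.97, 8.94 and 7.98 in WT and 7.30, 7.90, 8.61 and 8.98 in EP2KO. WT was past its highest level at 14 h and EP2KO was at its highest (difference 1.0, departure 1.22, limma adjusted p = 0.0960), while its other probe sets differed by 0.45 and 0.17. Fosb differed by 0.81, Klf2 by 0.58, Fos by 0.54 and Ier2 by 0.49. Not every member read higher in EP2KO: Nr4a1, an orphan nuclear receptor induced by cyclic AMP, differed by −0.51, within its earlier range. Egr1, a zinc finger factor, differed by −0.10, above its earlier differences. Of the 19, 4 (Atf3, Klf4, Fosb and Klf6) were higher by at least 0.6 above their earlier differences, beside 0.667% of all genes, and none of these departures passed the test.

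**Figure D3:**
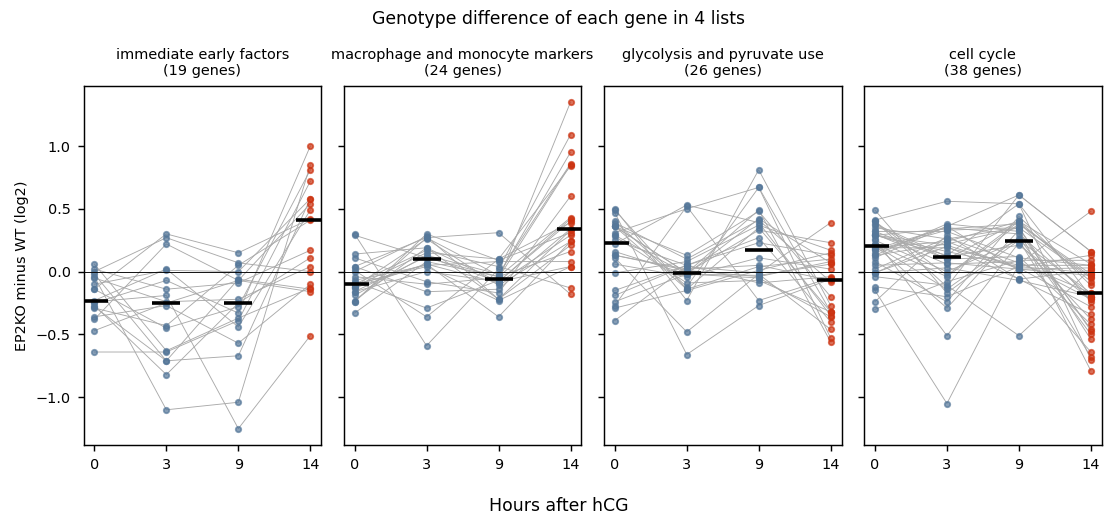
Difference EP2KO minus WT (log2, vertical axis) of each gene in 4 lists at 0, 3 and 9 h (blue) and 14 h (red), with grey lines joining a gene and black bars at the median. The immediate early factors go from a median of −0.25 at 9 h to 0.41 at 14 h, and the cell cycle genes from 0.24 to −0.17.

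Bnip3, a mitochondrial protein that drives mitophagy and is a target of the hypoxia factor HIF-1, measured 8.98, 7.76, 8.14 and 10.14 in WT and 9.30, 8.43, 8.37 and 8.99 in EP2KO. EP2KO was higher at all 3 earlier times, by 0.32, 0.67 and 0.23, and 2.22-fold lower at 14 h (difference −1.15, departure −1.56, SE 0.225, limma adjusted p = 0.0466). WT alone had its highest Bnip3 level after ovulation. Ak4, a mitochondrial adenylate kinase and likewise a hypoxia target, measured 8.31, 8.64, 8.67 and 9.65 in WT and 8.69, 8.88, 9.10 and 8.67 in EP2KO. It too was higher in EP2KO at the 3 earlier times and lower at 14 h. Its difference of −0.98 gave a departure of −1.33 that just missed the threshold (SE 0.198, adjusted p = 0.0537), and a second probe set differed by −0.47. Egln1, the oxygen-sensing hydroxylase that marks HIF for breakdown, differed by −0.59 at 14 h, after 0.34, 0.18 and 0.21.

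The promoters of Bnip3 and Ak4 are printed with the core letters of the hypoxia response element, ACGTG on either strand, in capitals, again from RefSeq (GRCm38.p6). The window of Bnip3 is chr7:138909507-138909756 on the minus strand. For Ak4, 4 windows are listed, of which the 1 with a match is given, chr4:101419453-101419702 on the plus strand.
Bnip3: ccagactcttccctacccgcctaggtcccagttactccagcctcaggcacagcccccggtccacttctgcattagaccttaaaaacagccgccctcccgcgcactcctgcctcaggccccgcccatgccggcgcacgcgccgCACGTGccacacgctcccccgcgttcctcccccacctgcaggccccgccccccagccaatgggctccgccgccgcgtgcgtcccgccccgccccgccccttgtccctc
Ak4: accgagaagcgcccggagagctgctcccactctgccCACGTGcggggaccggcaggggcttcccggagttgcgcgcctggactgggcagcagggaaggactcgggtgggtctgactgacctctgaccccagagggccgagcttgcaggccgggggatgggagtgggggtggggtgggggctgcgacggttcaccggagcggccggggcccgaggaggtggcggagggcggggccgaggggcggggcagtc
In each the match reads CACGTG, which holds the core on both strands in overlapping letters. The core stands in 5444 of 32851 windows (16.6%), and the match is a description of the letters and no evidence of binding.

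Hypoxia-linked genes did not move as 1 group. Of 19 measured, 7 lay below and 5 above their earlier differences, beside 24.7% and 26.0% of all genes, with a median of −0.16 against 0.11, −0.02 and −0.02 before. Vegfa, the vessel growth factor and a standard HIF target, read 7.12 in both genotypes at 14 h. Slc2a1, the glucose transporter GLUT1, differed by −0.46 at 14 h but also by −0.48 at 3 h. In glycolysis and pyruvate use 12 of 26 genes lay below and 3 above, against the same shares, and the median was −0.07 after 0.23, −0.01 and 0.17. Ldha, lactate dehydrogenase A, read 12.91 in WT and 12.35 in EP2KO at 14 h, a difference of −0.56 after 0.36, −0.01 and 0.49. Pfkl, a phosphofructokinase subunit, read 11.83 and 11.30 at 14 h after being higher in EP2KO by 0.31, 0.50 and 0.67. Pdk1, the kinase that keeps pyruvate from the citrate cycle, differed by −0.35 after 0.22, 0.53 and 0.39. For these enzymes EP2KO lay above WT in most earlier pairs and below it at 14 h, and 0 of the 26 differed by 0.6 or more.

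Mitochondrial oxidation differed little. The 43 respiratory chain and ATP synthase genes had a median difference of 0.00 at 14 h, with 13 below and 6 above (24.7% and 26.0% of all genes), and 0 reached 0.6 outside their earlier differences. The 26 citrate cycle and gluconeogenesis genes had a median of 0.00 and the 26 genes of fatty acid oxidation one of 0.01. In the last list Acadl, which oxidizes long-chain acyl-CoA, read 9.34 in WT and 8.73 in EP2KO. Glud1, glutamate dehydrogenase, read 10.36 and 9.74. Mgst1, a microsomal glutathione transferase that was high in both genotypes from 3 h on, read 12.27 in WT and 11.51 in EP2KO, and the 39 antioxidant genes had a median of −0.14 with 11 below and 7 above, the first near the 24.7% of all genes.

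Of 31 genes of fatty acid synthesis and storage 10 lay above and 8 below their earlier differences, against 26.0% and 24.7% of all genes, with a median of −0.02. Scd1, the stearoyl-CoA desaturase that makes monounsaturated fatty acids, measured 6.98, 6.88, 9.36 and 10.42 in WT and 7.38, 7.03, 8.88 and 9.40 in EP2KO on its most affected probe set. Both genotypes went up from 3 h on and EP2KO was 2.03-fold lower at 14 h (difference −1.02, departure adjusted p = 0.440, limma). The brightest Scd1 probe set differed by −0.83 and another by −0.02. Sc5d, a late enzyme of cholesterol synthesis, measured 7.20, 8.03, 8.44 and 8.10 in WT and 7.53, 8.0, 8.72 and 7.30 in EP2KO. Its difference of −0.80 was matched by −0.78 on a second probe set. Of 18 cholesterol synthesis genes 8 lay below and 1 above their earlier differences, against the same shares of all genes, and the median went from 0.31 at 0 h to −0.15 at 14 h. Fabp5, a fatty acid carrier, read higher in EP2KO, at 8.15 in WT and 8.96 in EP2KO. Hao2, a peroxisomal hydroxyacid oxidase, read 8.74 in WT and 7.66 in EP2KO (difference −1.08, adjusted p = 0.517).

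Apoe, the apolipoprotein of macrophages and steroidogenic cells, measured 8.35, 9.04, 8.17 and 9.93 in WT and 8.75, 8.57, 8.41 and 10.91 in EP2KO, a 1.97-fold higher signal at 14 h. Its departure of 0.92 did not pass (limma adjusted p = 0.540), and the difference was 0.35 on a second probe set and 0.67 with both averaged. In steroidogenesis 0 of 14 genes lay above and 4 below their earlier differences, beside 26.0% and 24.7% of all genes. Star, the carrier of cholesterol into mitochondria, differed by −0.66 at 14 h and by −0.43, −1.21 and −0.45 before, a range that holds the 14 h value. Nr5a2, the nuclear receptor LRH-1 that granulosa cells need for ovulation, differed by −0.56 at 14 h, after 0.03, 0.14 and −0.06. Cyp1b1, which hydroxylates oestradiol, measured 9.85, 8.80, 9.99 and 11.20 in WT, and EP2KO differed from it by 0.02, 1.20, 0.30 and −0.88. It was thus higher in EP2KO at 3 h and lower at 14 h (departure −1.39, SE 0.369, limma adjusted p = 0.369).

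**Figure D4:**
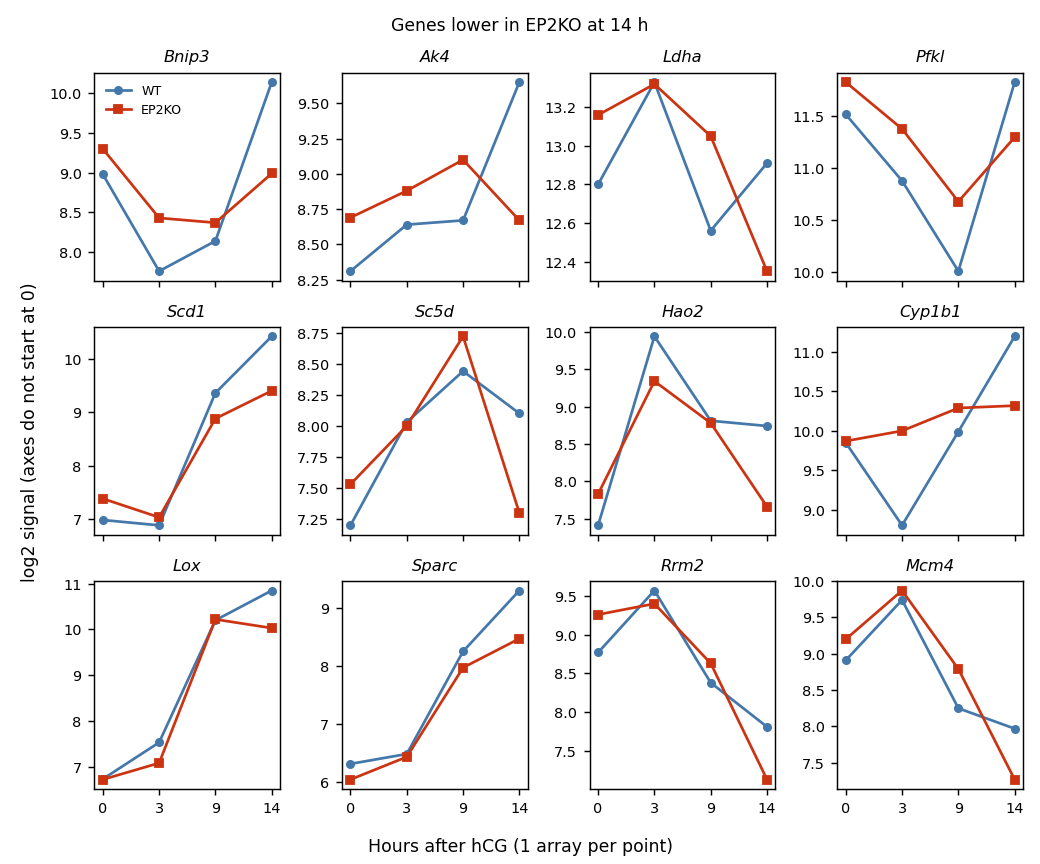
log2 signal of 12 genes (vertical axes, scaled to each gene) against hours after hCG in WT (blue circles) and EP2KO (red squares), 1 array per point. Bnip3, Ak4 and Pfkl are higher in EP2KO at 0, 3 and 9 h and lower at 14 h, when WT reads 10.14, 9.65 and 11.83.

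Cell division genes read higher in EP2KO before ovulation and lower after it. Of 38 measured, 25 lay below their earlier differences and 2 above, beside 24.7% and 26.0% of all genes, and the median was 0.20, 0.12 and 0.24 before and −0.17 at 14 h. The earlier lean was not particular to this list: at 0 and 9 h the medians were 0.23 and 0.17 in glycolysis and 0.14 and 0.23 in the respiratory chain. In other lists they lay below 0, as for lymphocyte markers with −0.13 and −0.06. The signal of the cell division list went down in both genotypes after 3 h, with a mean of 8.61 (WT) and 8.43 (EP2KO) at 14 h, and 9.56 and 9.74 at 0 h. Mcm4, a subunit of the replicative helicase, measured 8.91, 9.74, 8.25 and 7.97 in WT and 9.20, 9.87, 8.79 and 7.27 in EP2KO. It was higher in EP2KO at each earlier time and differed by −0.70 at 14 h. Cks2, a cyclin-dependent kinase subunit, read 11.38 and 10.59 at 14 h. Rrm2, the ribonucleotide reductase subunit that sets nucleotide supply for replication, read 7.81 and 7.13, and Cdc25c, a mitotic phosphatase, 8.56 and 7.92. Those 4 were the members lower by at least 0.6 below their earlier differences, beside 1.28% of all genes, and none of their departures passed (limma adjusted p of 0.218 for Mcm4 and 0.458 for Rrm2). Cdkn1a, the kinase inhibitor p21, was the main exception at 0.48 higher.

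Hmgb2, a chromatin protein most abundant in dividing cells, passed the departure test. Its probe set measured 7.84, 9.16, 7.78 and 7.79 in WT and 8.07, 9.03, 8.09 and 6.36 in EP2KO, the lowest of the 8 arrays. Both 14 h readings lay below the medians of their arrays, 7.84 (WT) and 7.86 (EP2KO). The difference of −1.43 was 2.69-fold (departure −1.57, SE 0.226, limma adjusted p = 0.0466). Gadd45a, which is induced by stress and slows the cycle, read 11.04 in WT and 10.24 in EP2KO at 14 h, up in both from 7.27 and 7.46 at 0 h. Among 27 apoptosis regulators the median was 0.01, and in 31 heat shock and unfolded protein response genes it was −0.10 with 15 below and 7 above, beside 24.7% and 26.0% of all genes. Dnajb9, a chaperone of the endoplasmic reticulum, read 9.13 in WT and 8.29 in EP2KO, though 5.22 and 5.23 on a second probe set.

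Matrix genes of cumulus expansion were mixed: of 19 measured, 7 lay above and 3 below their earlier differences, beside 26.0% and 24.7% of all genes, with a median of 0.02. Tnfaip6, which couples heavy chains to hyaluronan, differed by −0.63 at 14 h, after −0.43, −0.25 and −0.52. Vcan, the proteoglycan versican, differed by −0.49 after −0.03, −0.34 and −0.40, and Ptx3, the pentraxin that stabilizes the matrix, by −0.55 after −0.31, −0.75 and 0.13. The 14 h value of Ptx3 lay within its earlier range, and those of Tnfaip6 and Vcan by less than 0.5 outside theirs. Lox, the enzyme that cross-links collagen and elastin, was different: it read 10.20 in WT and 10.22 in EP2KO at 9 h, and 10.85 and 10.03 at 14 h. Sparc, a collagen-binding matrix protein, measured 6.31, 6.48, 8.25 and 9.30 in WT and 6.04, 6.43, 7.97 and 8.47 in EP2KO. Has2, the hyaluronan synthase, read 7.39 and 7.45, near its 0 h level of 7.39 and 7.21. Of 52 extracellular matrix genes 21 lay above and 8 below, against the same shares, with a median of 0.05, and Tnc, tenascin C, was 0.58 higher in EP2KO on its brighter probe set and 0.10 higher on the other.

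**Figure D5:**
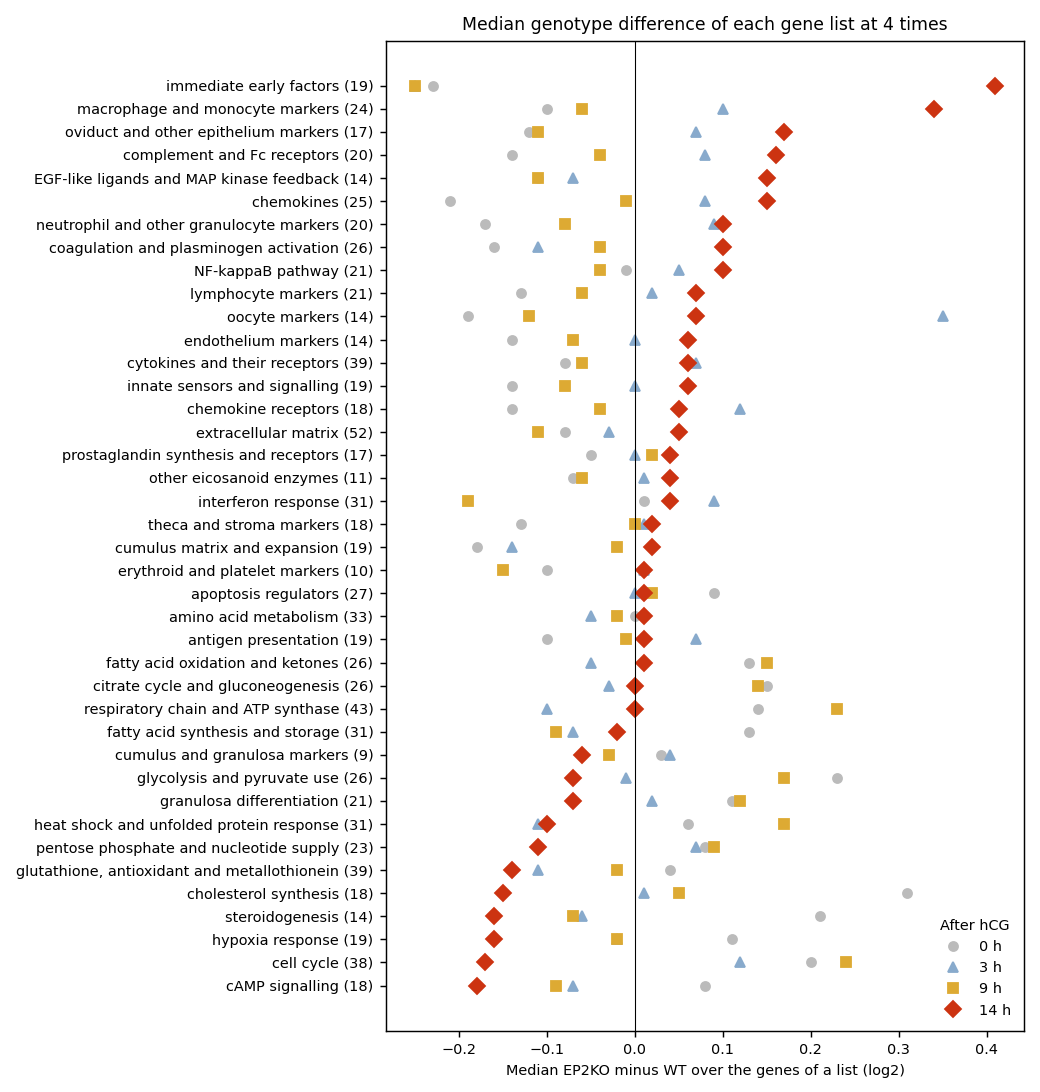
Median difference EP2KO minus WT (log2, horizontal axis) of 40 gene lists at 0 h (grey circles), 3 h (blue triangles), 9 h (yellow squares) and 14 h (red diamonds), with the number of measured genes in brackets. At 14 h the immediate early factors (0.41) and macrophage and monocyte markers (0.34) lie at the upper end and cAMP signalling (−0.18) and cell cycle (−0.17) at the lower. Of the 18 cAMP signalling genes 4 lay below their earlier differences, 2 above and 12 within, beside 24.7% of all genes below and 26.0% above. The cAMP signalling median was −0.12 after quantile normalization and −0.13 after intensity-dependent centring.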

How the data were processed

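RNA of cumulus cells was measured on Affymetrix MG_U74Av2 arrays, labelled from 100 ng of total RNA per the labels. The deposited values are log2 signals with 2 decimals, made by the authors with RMA, per the submitters' processing notes; the version is not given here. RMA scales the arrays together, so a shift of all genes cannot be seen. Of 12488 probe sets 66 Affymetrix controls were left out. Of the 12422 used, 10833 carry 1 gene symbol by the platform annotation, 396 several and 1193 none, and 10817 of the symbols matched the RefSeq table by gene ID. No detection calls were used, and a low signal may therefore be background. Precision is limited by how few arrays there are.

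At 14 h no test was made. The departure was the genotype by 14 h term in a fit on all 8 arrays with time and genotype as terms (limma 3.58.1, R 4.3.3, eBayes, 2 residual and 8.20 prior degrees of freedom, median SE 0.208). Two-sided p-values were adjusted by Benjamini-Hochberg over all probe sets. The code was tested on simulated data.

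Named genes were Ptger2, the 15 highest and 15 lowest at 14 h among probe sets with 1 symbol, a 14 h array above its median and a difference outside the earlier range, departures past the threshold, and members of 31 gene lists and 9 marker lists (1081 symbols, 870 measured). In lists the brightest probe set stands for its gene. The members and lists were chosen with earlier results of these data known. Alternatives were median centring, quantile normalization, removal of the intensity trend, no dim probe sets, averaged probe sets, another variance model, other thresholds and leaving out each time.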

Additional observations from a re-analysis of the deposited data

Results flagged for a closer look

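For 10 probe sets the genotype difference at 14 h differed from that at the earlier times by the interaction test (limma, adjusted p under 0.05), which compares the stage after ovulation with the 3 times before it. The departures towards higher signal in EP2KO were 1.95 for Ccl2, 1.80 for Arg1, 1.76 for Krt18, 1.63 for Cxcl1, 1.61 for Lilr4b and 1.5 for Ctss. The probe set shared by Lilrb4a and Lilr4b departed by 1.48 and a probe set without a gene name, which read 5.39 in WT and 6.90 in EP2KO at 14 h, by 1.59. Those towards lower signal were −1.56 for Bnip3 and −1.57 for Hmgb2. Before 14 h Ccl2, Lilr4b and the unnamed probe set read far under the array medians of 7.79 to 7.89. Ccl2 and the unnamed probe set stayed under the medians on both 14 h arrays. The earlier differences of these probe sets are thus those of dim signals, though limma draws each spread towards a value common to all probe sets. The SEs of Ccl2, Lilr4b and the unnamed probe set were 0.217, 0.211 and 0.198, beside a median SE of 0.208.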

How the results depend on the processing

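Every difference rests on 1 array per genotype, and effects of the single array or collection cannot be told apart from genotype at 14 h. No paired analysis was possible because each group holds a single array and no label links the animals. The departure counts, 8 higher and 2 lower, were 9 and 1 after quantile normalization and 12 and 5 with an intensity trend and robust prior. They were 0 and 0 after median centring, intensity-dependent centring, without the dimmest 40% of probe sets, with probe sets of a gene averaged, and without the 0, 3 or 9 h pair (range 0 to 0). The cause was not tested, except that leaving out a pair takes away residual degrees of freedom. The count of 21 higher by 2-fold was 7 without dim probe sets, 13 with averaging, 81 at a threshold of 0.6 and 0 at 2. The 6 lower became 157 at 0.6 and 0 at 2. The 18 higher outside the earlier range were 5 without dim probe sets, and the 4 lower were 2 with averaging or a margin of 1. The genotype difference over 4 times gave 0 to 1 lower call when a time was left out, the 1 without the 14 h pair. Of the named genes' differences and departures and the list medians, none that was called changed sign. Of 280 alternatives of 32 departures, 224 gave the same verdict, 53 were weaker and 3 stronger. All 53 weaker verdicts were lost calls of the 8 called genes. Most of the same verdicts came from genes that were not called in the main fit. Each called gene kept its call in only 1 or 2 of its 8 or 9 alternatives, as in 2 of 8 for Ccl2 and 1 of 9 for Bnip3. For antigen presentation, cumulus matrix, fatty acid oxidation and other lists with a median within 0.02 of 0 the sign has no meaning.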

Other observations

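Vessel, stroma and patterning genes gave single outlying values. Cdh5, the adhesion protein VE-cadherin, differed by −0.07, −0.11, −0.68 and −0.81 at the 4 times, with 8.56 in WT and 7.75 in EP2KO at 14 h. The 14 endothelium markers had a median difference of 0.06. Ptch1, the hedgehog receptor, was higher in EP2KO by 0.32, 0.47 and 0.47 before ovulation and differed by −0.66 at 14 h on its brighter probe set, and by 0.15 on the other. Slc34a2, a sodium-phosphate cotransporter of epithelia, gave 7.65 (WT) and 8.57 (EP2KO) at 14 h, and 6.80 to 7.45 before. The matricellular genes Ccn1 and Ccn2 differed by 0.92 and 1.12 at 14 h. For Ccn2 the gap was 1.06 at 3 h and 0.92 at 9 h, and for Ccn1 0.41 and −0.02.

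Chromatin and signalling genes were among the 15 lowest. Suz12, a Polycomb subunit, read 10.02 in WT and 9.03 in EP2KO, with −0.23 and 0.08 on its other probe sets. Smarca2, a chromatin remodelling ATPase, read 8.02 and 7.11. Numb, an inhibitor of Notch, differed by −0.91 on 1 probe set and −0.06 on the other. Mbp, Mis18a, Ctr9, Tmem45a, Rnf181, Atp6v1c1 and Frmd5 differed by −1.04 to −0.88, while other probe sets of Mbp and Ctr9 differed by 0.12 and 0.00. Frmd5 differed by 0.79, −0.96 and −0.41 at 0, 3 and 9 h, so its −1.04 at 14 h lay close to its 3 h value. Erdr1 was higher in EP2KO at every time, by 1.0, 0.14, 0.46 and 1.36, on a probe set that can cross-hybridize by its name, and by 0.05 at 14 h on another. A probe set without a gene name, chosen after its values were seen, was higher by 1.14, 0.68, 0.86 and 1.88. Mtm1 differed by −1.49 at 0 h and 0.99 at 14 h on 1 probe set, and by −0.27 at 14 h on the other.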
